A study of Caenorhabditis elegans with 6 samples.

Results

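The 3 Wnt ligand genes egl-20, cwn-2 and mom-2 were followed in whole Caenorhabditis elegans at the L4 stage, the last larval stage before the adult. They were found by name in the table of 5792 genes that the authors deposited, and each had 1 entry. RNA of TGQ animals (3 samples) was set against RNA of WT animals (3 samples). The labels use TGQ as a strain name, and the sources used here give neither its genotype nor its derivation. The WT animals carry the strain name SJ4100, a strain known to express GFP under the control of the hsp-6 promoter, and whether TGQ animals share this reporter is not stated. Animals of both kinds were fed from hatching, at 20 °C, on OP50, the standard laboratory food strain of Escherichia coli, and the series title places them in a study of inherited mitochondrial DNA content and the mitochondrial unfolded protein response. No age in hours, cell sort or tissue dissection is given, so every value is a sum over all cells of the animals. In such bulk RNA, fewer cells of a type and less RNA per cell cannot be told apart.

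Wnt proteins are secreted, lipid-modified signals. They are released with the help of the carrier MIG-14 and the retromer, bind Frizzled, Ror and Ryk receptors on other cells, and act through Dishevelled and beta-catenin on the transcription factor POP-1, the worm TCF, or on cell polarity without it. C. elegans has 5 Wnt genes. EGL-20 is made by cells of the tail, forms a gradient along the body and directs the migration of the Q neuroblast descendants, and in worms with mitochondrial stress in neurons it has also been reported to carry the stress signal to the intestine. CWN-2 acts in the migration of neurons, in the placement of the nerve ring and in neurite outgrowth. MOM-2 is supplied by the mother and is the signal that polarises the endoderm precursor in the early embryo.

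Both groups differed over much of the transcriptome. The deposited values carry no unit in the header, and their sums over the listed genes were 282762 to 293887 in TGQ samples and 327792 to 349508 in WT samples. Across the 5540 genes tested, correlations between samples were 0.989 to 0.993 within TGQ, 0.987 to 0.995 within WT and 0.87 to 0.919 between the groups. On the second principal component (6.6% of the variance), WT replicates 1 and 2 lay at opposite ends, at 15.6 and -12.8, with the other samples at -4.99 to 7.13. All genes in the table had passed the authors' test on these same samples, with an adjusted p of at most 0.04995 in the authors' deposited table. The members were therefore already known to differ, and the tests given here on the same samples do not add independent evidence of it. The test was limma on log2(value + 1), with Benjamini-Hochberg adjustment over all genes tested and a call at an adjusted p under 0.05. It called 90.2% of genes tested, 45.6% higher and 44.6% lower in TGQ.

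egl-20 and cwn-2 were higher and mom-2 was lower in TGQ animals. All 3 members were called, and for all 3 the TGQ and WT samples did not overlap. The groups also did not overlap for 91.2% of all genes tested, with every TGQ sample higher for 44.0% and every TGQ sample lower for 47.2%, so neither count sets the members apart from the table.

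The gene egl-20 (WBGene00001188) lies on the minus strand of chromosome IV at 9812357 to 9815532. This position and the others here are from the WBcel235 annotation, matched by gene identifier, since the sources used here do not name the authors' build. It has 3 annotated transcripts, the longest with 10 exons and 1950 bases, and encodes a protein of up to 393 residues. Its values were 6.11, 3.92 and 5.65 in TGQ replicates 1 to 3, against 3.41, 2.33 and 3.08 in WT replicates 1 to 3. The groups did not overlap, but the lowest TGQ sample, replicate 2, lay close to the highest WT sample, replicate 1. The mean was 5.23 ± 1.15 in TGQ and 2.94 ± 0.553 in WT (SD, n = 3 each), a ratio of means of 1.78. On the log2(value + 1) scale egl-20 rose by 0.65 (SE 0.18, 95% interval 0.26 to 1.05, adjusted p = 0.00704, limma). In the authors' deposited table its log2 fold change was 0.71, with an adjusted p of 0.00277.

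The gene cwn-2 (WBGene00000858) lies on the plus strand of the same chromosome, IV, at 10067816 to 10070251. It has 1 annotated transcript of 6 exons and 1427 bases, and its protein has 360 residues. Its annotated exons share 50 bases with those of W01B6.3 on the opposite strand, where reads of both genes cannot be told apart without strand information. Its values were 6.06, 7.12 and 6.39 in TGQ replicates 1 to 3, against 2.34, 3.2 and 3.62 in WT replicates 1 to 3. The lowest TGQ value exceeded the highest WT value, with a gap wider than the spread within either group. The mean was 6.52 ± 0.542 in TGQ and 3.05 ± 0.653 in WT (SD, n = 3 each), a ratio of means of 2.14. cwn-2 rose by 0.90 on the log2(value + 1) scale (SE 0.15, 95% interval 0.56 to 1.24, adjusted p = 0.000677, limma). By the authors' deposited table the log2 fold change was 0.95. Of all genes tested, 90.8% had a lower change than cwn-2, and 79.1% had a lower change than egl-20.

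The gene mom-2 (WBGene00003395) lies on the plus strand of chromosome V at 8355988 to 8358185. Its single transcript has 6 exons and 1537 bases, and its protein has 362 residues. The values were 6.93, 6.44 and 5.13 in TGQ replicates 1 to 3, against 17.44, 11.2 and 11 in WT replicates 1 to 3. The groups did not overlap, and WT replicate 1, at one end of the second principal component over all genes, was the highest for mom-2. The mean was 6.17 ± 0.931 in TGQ and 13.2 ± 3.66 in WT (SD, n = 3 each), a ratio of means of 0.467. mom-2 fell by 0.97 on the log2(value + 1) scale (SE 0.19, 95% interval -1.39 to -0.54, adjusted p = 0.00149, limma). Without WT replicate 1 the log2 change was -0.76 (adjusted p = 0.00091, limma). The authors' deposited table gives a log2 fold change of -1.22 with an adjusted p of 1.88e-10. Of all genes tested, 14.1% had a lower change than mom-2.

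A 4th ligand gene, cwn-1 (WBGene00000857, chromosome II, 130983 to 133598), was also in the table. CWN-1 acts with EGL-20 in neuron migration and in patterning along the body axis. Its values were 9.76, 8.6 and 9.65 in TGQ replicates 1 to 3, against 6.06, 5.09 and 6.35 in WT replicates 1 to 3. It rose by 0.60 on the log2(value + 1) scale (SE 0.13, adjusted p = 0.00262, limma). The 5th Wnt gene, lin-44, is not analysed here. In the authors' annotation, 4 genes of the table carry the Wnt family domain, which are these 4.

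**Figure D1:**
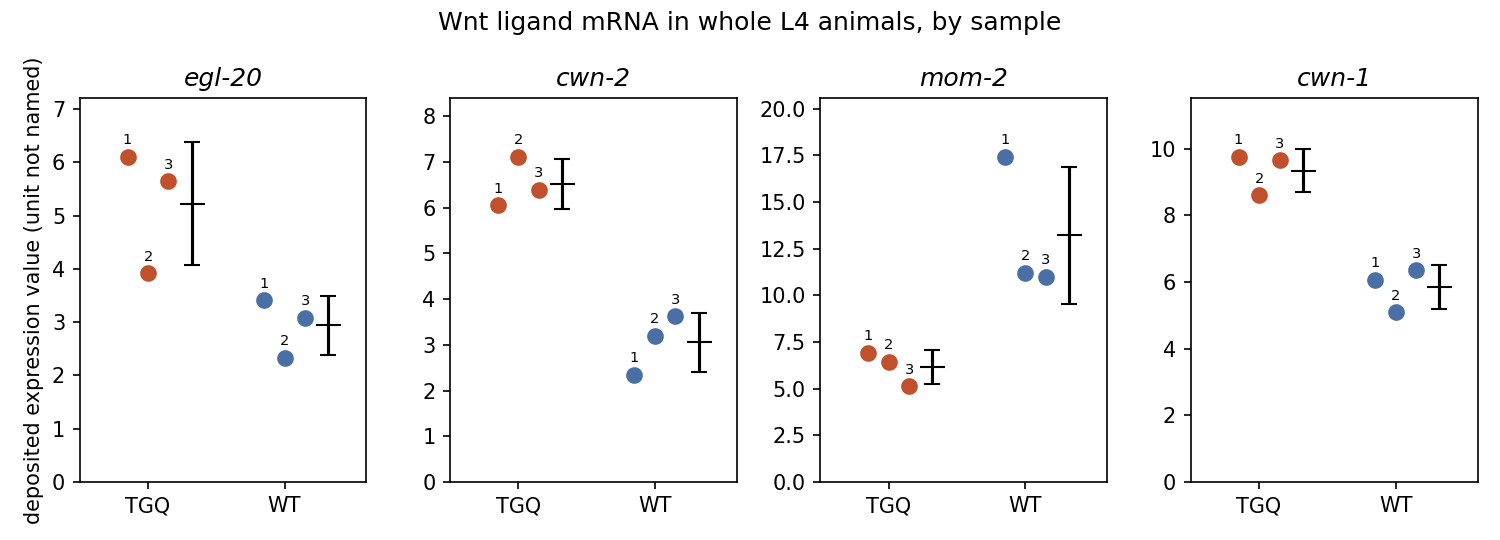
Deposited expression values of the 4 Wnt ligand genes in each sample (vertical axes, unit not named in the file, each panel on its own scale from 0), with TGQ samples left and WT samples right, replicate numbers above the points, and the mean ± SD (n = 3) as a bar. The TGQ points lie above the WT points for egl-20, cwn-2 and cwn-1 and below them for mom-2, where WT replicate 1 stands at 17.44.

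Levels of different genes can be set side by side if the values are per length. The implied squared error of the authors' test fell with transcript length (slope of -0.79 ± 0.01 on log length, SE, over 1960 genes of low level), as it would for values divided by length. On this footing the order of the ligand genes differed between the groups. In TGQ, cwn-1 was the highest at 9.34 ± 0.64, and its lowest sample (8.6) lay above the highest of cwn-2 (7.12). Below it in TGQ, cwn-2 at 6.52, mom-2 at 6.17 and egl-20 at 5.23 followed each other, and the samples of neighbours in this order overlapped. In WT, mom-2 was the highest at 13.2, and its lowest sample (11) lay above every cwn-1 sample (mean 5.83 ± 0.66). Below them in WT, cwn-2 at 3.05 and egl-20 at 2.94 overlapped each other and lay below every cwn-1 sample. As a percentile of the level of all 5792 genes within a sample, egl-20 stood at 23.7 to 33.8 in TGQ and at 16.7 to 19.4 in WT, and cwn-2 at 32.5 to 38.3 in TGQ and at 13.7 to 22.3 in WT. The percentile of mom-2 was 31.2 to 35.9 in TGQ and 49.3 to 58.1 in WT. These percentiles do not depend on how whole samples were scaled. The groups did not overlap for any of the 3 members, but the share of all genes without such overlap in percentile was not computed. Since every gene of the table was selected as differing on these samples, this does not set the members apart.

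The sum of the 4 ligand mRNAs was similar in both groups, while its make-up was not. The sum was 28.9, 26.1 and 26.8 in TGQ replicates 1 to 3, against 29.3, 21.8 and 24.1 in WT replicates 1 to 3, so the groups overlapped. Of this sum, mom-2 made up 24.0%, 24.7% and 19.1% in TGQ replicates 1 to 3, against 59.6%, 51.3% and 45.7% in WT replicates 1 to 3. On average mom-2 held 22.6% ± 3.03 of the sum in TGQ and 52.2% ± 6.98 in WT (SD, n = 3 each). The share of cwn-2 averaged 24.0% ± 3.16 in TGQ and 12.6% ± 3.97 in WT. The share of egl-20 averaged 19.1% ± 3.52 in TGQ and 11.7% ± 1.07 in WT, and that of cwn-1 34.3% ± 1.55 in TGQ and 23.5% ± 2.84 in WT. As each TGQ sample was higher for egl-20, cwn-2 and cwn-1 and lower for mom-2, a lower mom-2 share in TGQ had to follow. The shift in make-up thus restates the changes of the single genes and adds no evidence.

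**Figure D2:**
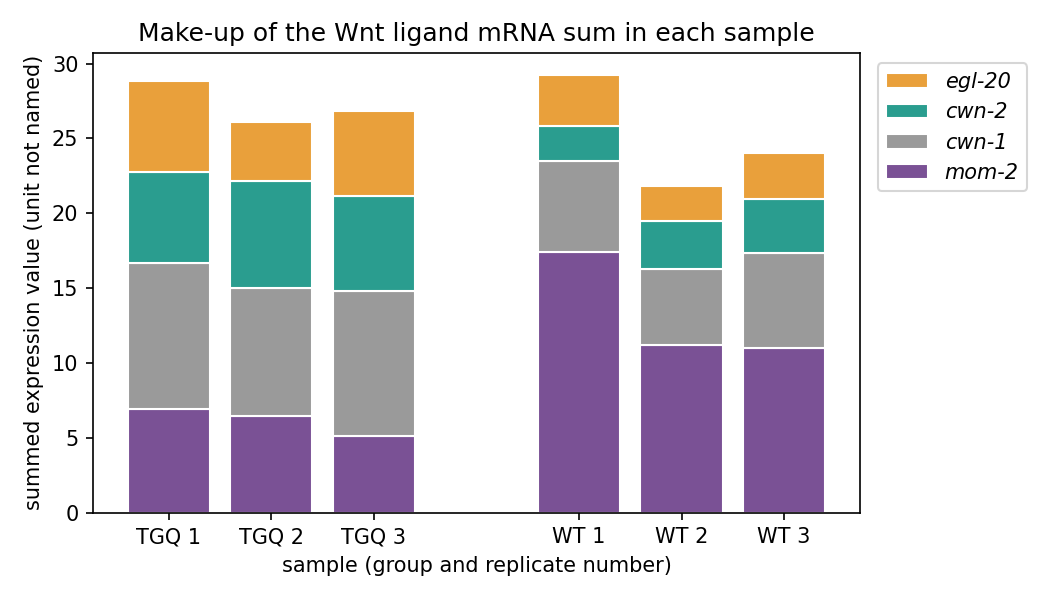
Stacked deposited expression values of mom-2, cwn-1, cwn-2 and egl-20 (vertical axis, unit not named, from 0) in each TGQ sample (left) and WT sample (right). The bars reach 26.1 to 28.9 in TGQ and 21.8 to 29.3 in WT, and the mom-2 segment is the largest one in each WT sample and not in any TGQ sample.

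Differences between 2 members within a sample cancel the scaling of whole samples in part on the log2(value + 1) scale, and in full on the log2 scale with nothing added, an alternative chosen after seeing the data. The log2(value + 1) of egl-20 minus that of mom-2 was -0.16, -0.60 and 0.12 in TGQ replicates 1 to 3, against -2.06, -1.87 and -1.56 in WT replicates 1 to 3. Both mRNAs were thus closer in level in each TGQ sample than in any WT sample, where mom-2 was far above egl-20. In TGQ replicate 2 this difference was still -0.60, with mom-2 above egl-20. The mean of this difference was 1.62 higher in TGQ (p = 0.1 in an exact two-sided permutation test, where 3 against 3 samples allow no smaller value, and 0.15 after adjustment over the 3 pairs compared). The difference cwn-2 minus mom-2 was -0.17, 0.13 and 0.27 in TGQ replicates 1 to 3, against -2.46, -1.54 and -1.38 in WT replicates 1 to 3, a mean 1.87 higher in TGQ (exact two-sided permutation p = 0.1, adjusted 0.15). With nothing added to the values, these means were 1.90 and 2.19 higher in TGQ. For both of these pairs the permutation p was fixed in advance and adds no evidence. Every TGQ sample was higher for egl-20 and cwn-2 and lower for mom-2, so the groups could not overlap in these differences. The third pair, egl-20 minus cwn-2, averaged -0.29 ± 0.39 in TGQ and -0.04 ± 0.39 in WT (SD, n = 3 each), a change of -0.25 that was smaller than the spread within either group (exact two-sided permutation p = 0.6, adjusted 0.6). These samples did not resolve whether egl-20 and cwn-2 changed to a different extent. Their samples also ran unlike each other, since TGQ replicate 2 was the lowest TGQ sample for egl-20 and the highest for cwn-2, and WT replicate 1 was the highest WT sample for egl-20 and the lowest for cwn-2.

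The rest of the Wnt pathway was read from a list of 51 genes ordered by role. Of these, 17 were in the table (33.3%), against 34.6% of the 16747 genes that the authors' adjusted p-values imply were tested. Of the 16 list genes that passed the filter on low values, 14 were called higher, 1 lower and 1 in neither direction. The single lower call was that of mom-2. Their median change on the log2(value + 1) scale was 0.56, beside -0.22 for all genes tested, where 46.2% of genes had a change above 0. The list is described by these counts, and the 34 other list genes are not analysed here.

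Among 6 receptor genes, lin-17 was in the table. LIN-17 is a Frizzled receptor that acts in asymmetric cell divisions. Its values were 10.96, 11.03 and 11.98 in TGQ replicates 1 to 3, against 7.52, 6.54 and 7.55 in WT replicates 1 to 3, and it rose by 0.59 (SE 0.12, adjusted p = 0.00205, limma). Of the 11 genes of Wnt secretion and the retromer, dpy-23 was in the table, and mig-14 and vps-35 are among those not analysed here. DPY-23 is a subunit of the AP2 clathrin adaptor, which returns MIG-14 from the cell surface. It rose to 28.7 ± 1.73 in TGQ, against 19.01 ± 1.16 in WT (SD, n = 3 each, log2 change 0.57, limma adjusted p = 0.00167).

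Genes that act on Wnt or its receptors at the cell surface were called higher, with 3 of 4 in the table. The glypican gene gpn-1, which encodes a heparan sulfate proteoglycan, was at 3.56, 3.95 and 3.98 in TGQ, against 1.29, 1.52 and 1.53 in WT, a ratio of means of 2.65 (log2 change 0.98, limma adjusted p = 0.000132). Its rise was the largest of the pathway genes tested. The gene plr-1, whose product is a transmembrane ubiquitin ligase that takes Frizzled receptors off the cell surface, rose by 0.53 (adjusted p = 0.0039, limma). The secreted Frizzled-related protein SFRP-1 binds and blocks Wnt. Its gene sfrp-1 was at 7.33, 6.31 and 7.39 in TGQ, against 3.48, 6.6 and 4.88 in WT, so the groups overlapped. Its log2 change was 0.45 (adjusted p = 0.0445, limma), and the call was lost with the authors' scaling (adjusted p = 0.107), after quantile normalization (adjusted p = 0.055), and in limma fits without any one of WT replicates 1 and 3 and TGQ replicates 1, 2 and 3 (adjusted p of 0.126, 0.087, 0.0938, 0.0547 and 0.107).

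Inside the receiving cell, single genes of several steps were called higher. They were 1 of 3 listed Dishevelled genes, 1 of 5 for the complex that breaks down beta-catenin and 1 of 4 beta-catenin genes. Of TCF and its regulators, 1 of 5 was called higher. Apart from wrm-1, the other genes of these lists are not analysed here. The Dishevelled gene dsh-1, which relays the signal from the receptor, had an average of 11 in TGQ and 7.24 in WT (log2 change 0.54, limma adjusted p = 0.00374). pry-1 encodes Axin, the scaffold of the complex that breaks down beta-catenin, and is itself known as a gene switched on by Wnt signalling. It was at 10.36, 10.93 and 11.05 in TGQ, against 6.67, 6.98 and 6.41 in WT (log2 change 0.62, SE 0.12, limma adjusted p = 0.00129). Part of its annotated exons lies opposite those of C37A5.11. The beta-catenin gene bar-1, which acts with EGL-20 in the Q neuroblast, rose by 0.46 (adjusted p = 0.00999, limma), and its exons overlap those of pgp-10 on the opposite strand by 17 bases. The beta-catenin gene wrm-1, which acts with MOM-2 in the endoderm precursor, was at 8.83, 8.6 and 7.48 in TGQ, against 12.42, 8.16 and 8.9 in WT. Its log2 change of -0.20 was not called (adjusted p = 0.251, limma), while the authors' deposited table lists it as lower (log2 fold change -0.36, adjusted p = 0.0344). Without WT replicate 1, its highest sample, the log2 change of wrm-1 was -0.04 (adjusted p = 0.781, limma), and without WT replicate 2 it was -0.31 (adjusted p = 0.11, limma).

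The gene unc-37, which encodes a Groucho-like corepressor that works with POP-1, rose to 18.2 ± 0.497 in TGQ, against 12.4 ± 1.43 in WT (SD, n = 3 each, log2 change 0.52, limma adjusted p = 0.00391). Of the planar polarity genes, vang-1, the worm Van Gogh, was at 1.96, 2.76 and 2.45 in TGQ, against 1.06, 1.1 and 1.08 in WT (log2 change 0.70, limma adjusted p = 0.00117). The Flamingo cadherin gene fmi-1 was too low to be tested, at 1.16, 1.14 and 0.88 in TGQ, against 0.71, 0.38 and 0.51 in WT. Of 5 listed genes known to respond to Wnt signals, the Hox gene egl-5 of the tail was in the table. Its values were 3.29, 2.9 and 3.38 in TGQ, against 2.67, 1.62 and 1.42 in WT (log2 change 0.55, limma adjusted p = 0.0125), and the call was lost without WT replicate 3 (adjusted p = 0.0553). The Hox genes mab-5 and lin-39, known targets in the Q neuroblasts and the vulval precursors, are not analysed here.

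**Figure D3:**
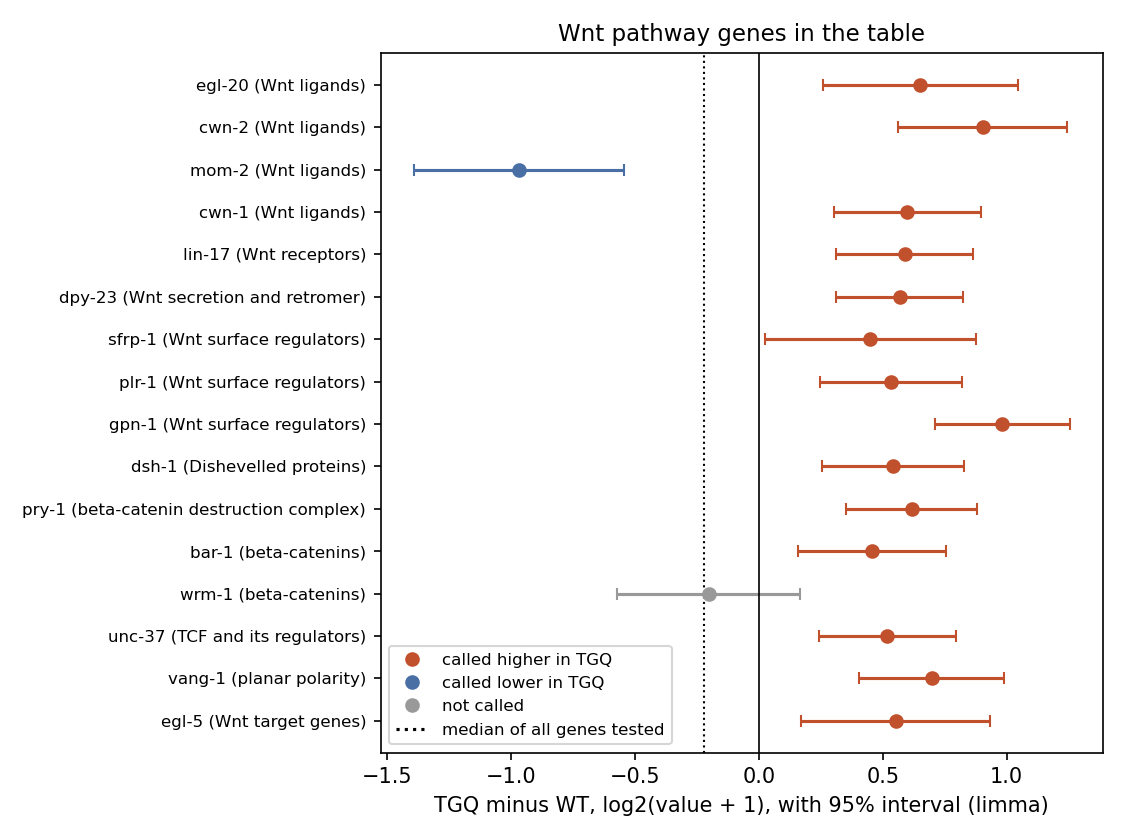
Change of each Wnt pathway gene tested, TGQ minus WT on the log2(value + 1) scale, with its 95% interval from limma (bars, n = 3 samples each) and its role in brackets; the dotted line marks the median of all genes tested (-0.22). 14 genes are called higher, mom-2 is called lower at -0.97, and wrm-1 at -0.20 is not called.

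The authors' annotation gives a wider view of the same pathway. In it, egl-20, cwn-2 and mom-2 share 13 Gene Ontology terms, among them frizzled binding, neuroblast migration, motor neuron migration and interneuron migration. Only mom-2 of the 3 is annotated with endodermal cell fate specification. All 16 genes of the table with the term Wnt signaling pathway were tested, 11 were called higher and 3 lower, and 11 of the 16 are also on the list above. The 3 lower calls were those of mom-2, K09E4.1 (log2 change -1.13) and Y47G6A.13 (log2 change -0.66), genes that were looked up by this term after the values were seen.

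Germ cell and tissue markers moved in the same samples, where 45.6% of all genes tested were called higher and 44.6% lower. Of 20 listed oocyte and eggshell markers, 19 were in the table and all 19 were called lower, with a median log2 change of -1.68 and a range of -2.72 to -0.98. Summed, these markers came to 396.7 to 575.6 in TGQ and 1566 to 2113 in WT, with the highest WT sum in replicate 1, the sample in which mom-2 was highest. That match is not particular to this list. WT replicate 1 also had the highest WT sum of the sperm, neuron, body wall muscle and intestine markers, and the lowest of the hypodermis and seam markers. None of the 19 oocyte and eggshell markers was at 0 in either group. On the log2(value + 1) scale the change of mom-2, -0.97, lay just above the smallest fall in this list. By ratio of means, mom-2 (0.467) lay within the range of the list, where gld-1 fell the least (0.494). Of 21 sperm markers, 20 were called lower and 1 higher, fog-3, a gene of germ cell sex determination, and their sum was 2026 to 2470 in TGQ and 6118 to 7414 in WT. Many of the sperm markers are near-identical copies that may share reads. The part of oocyte or sperm RNA in the fall of mom-2 was not tested.

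Most somatic markers in the table were called higher, against 45.6% of all genes tested, though for the intestine fewer rose than fell. The listed markers that are not in the table are not analysed here. All 6 neuron markers in the table, of 16 listed, were called higher (median log2 change 0.64), with a sum of 87.8 to 89.3 in TGQ and 47.4 to 63.3 in WT. All 5 body wall muscle markers in the table, of 16 listed, were called higher (median 0.77), with a sum of 336.6 to 369.6 in TGQ and 184.3 to 250.5 in WT. The changes of egl-20 (0.65) and cwn-2 (0.90) lay between the smallest and the largest change of these muscle markers, 0.45 and 0.99. The neuron markers ran from 0.54 to 0.75, a range that holds egl-20 and lies below cwn-2. Of 16 listed hypodermis and seam markers, 10 were in the table. Of these, 8 were called higher and 2 lower (median 1.19, range -1.03 to 1.71), with a sum of 5126 to 6078 in TGQ and 4469 to 5234 in WT. Of 16 listed intestine markers, 7 were in the table. Of these, 3 were called higher and 4 lower (range -2.60 to 0.92), the yolk protein genes vit-2 and vit-6 among the lower ones. The sum of the 7 was 999.8 to 1274 in TGQ and 1908 to 3130 in WT. Most of this fall came from vit-2 (mean 105.9 in TGQ and 651.1 in WT) and vit-6 (149.2 in TGQ and 879.3 in WT). Of the others, vha-6, pept-1 and gtl-1 were called higher, and cpr-6 and fat-7 lower. No marker of these 4 tissues in the table was at 0 in all samples of a group. The part of tissue proportions or of developmental timing in the rise of egl-20 and cwn-2 was not tested.

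**Figure D4:**
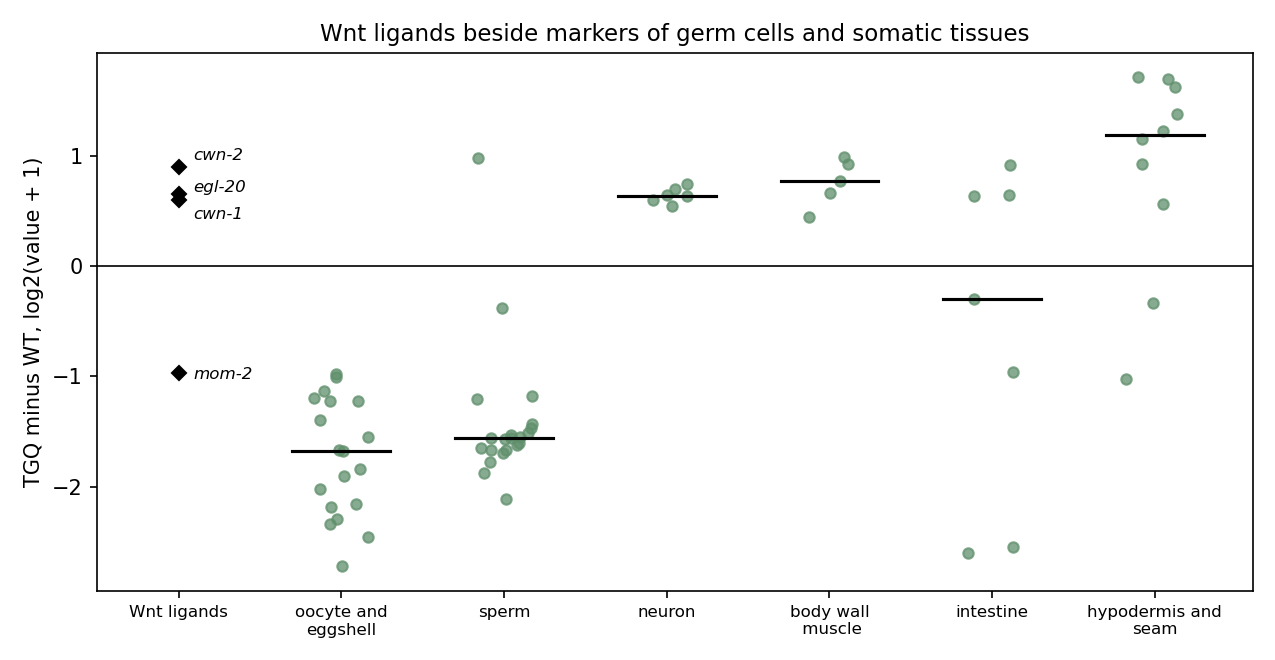
Change of single genes, TGQ minus WT on the log2(value + 1) scale, for the 4 Wnt ligand genes (diamonds) and for listed markers of oocytes and eggshell, sperm, neurons, body wall muscle, intestine, and hypodermis and seam (points, with the median as a line). The ligands egl-20, cwn-2 and cwn-1 lie at 0.60 to 0.90, within the ranges of the muscle, the intestine, and the hypodermis and seam markers. The point of mom-2 lies at -0.97, beside the smallest falls of the oocyte markers and within the ranges of the sperm, the intestine, and the hypodermis and seam markers. These placements hold for the scale shown. By ratio of means, cwn-2 (2.14) lay above the highest intestine marker, gtl-1 (1.998). On that measure mom-2 (0.467) lay below the lowest hypodermis and seam marker, col-12 (0.489).

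The genes whose values ran most like those of each member were named by the highest Pearson r over the 6 samples on the log2(value + 1) scale. These r values are a description, since all samples share the difference between the groups on which the table was selected. For egl-20 they were ppat-1, an enzyme of purine synthesis (r = 0.989), the paracaspase gene malt-1 (r = 0.987) and the peptidase gene pcp-2 (r = 0.987). Like egl-20, all 3 had their lowest TGQ value in replicate 2, with ppat-1 at 13.74, 9.97 and 12.83 in TGQ, against 9, 6.9 and 7.49 in WT. 45 genes ran with egl-20 at an r above 0.95.

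For cwn-2 the most alike genes were maf-1, a bZIP transcription factor gene (r = 0.998), ife-2, which encodes a cap-binding translation initiation factor (r = 0.997), and C18G1.1 (r = 0.996). The values of maf-1 were 9.32, 11.39 and 10.84 in TGQ, against 2.69, 4.3 and 4.97 in WT, with WT replicate 1 the lowest as for cwn-2. 465 genes ran with cwn-2 at an r above 0.95. For mom-2 they were cyk-4, a gene needed for cytokinesis (r = 0.999), E03H12.7 (r = 0.998) and F33H1.3 (r = 0.998). The values of cyk-4 were 34.84, 33.98 and 30.71 in TGQ, against 49.01, 41.03 and 41.24 in WT, a log2 change of -0.39 (adjusted p = 0.012, limma), which was not called without TGQ replicate 3 (adjusted p = 0.053). 932 genes ran with mom-2 at an r above 0.95, against 465 for cwn-2 and 45 for egl-20. In how many of them WT replicate 1 was the highest sample was not counted. These counts also depend on how widely each member spread within its groups, so they do not rank how common the patterns are.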

How the data were processed

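Polyadenylated RNA of whole L4 animals was sequenced as paired 150-base reads from TruSeq libraries, per the labels' protocols. The submitters' processing notes name TopHat, TopHat2 and RSEM, with neither version nor role. Genome build, annotation, strand setting and the tool behind the authors' test were not given in the sources used here. The authors deposited 1 table with an expression signal per sample (2 decimals, unit not named), group means, a fold ratio of TGQ to WT and its log2. The deposited p-value of each gene comes with an adjusted one. The signal is not a count. Values under 1 took 94 to 97 of the 99 possible values in each sample, so no read step common to the genes was found. Depth is therefore unknown and counting intervals are left out. The authors' log2 fold changes lay at a median of -0.131 from the log2 ratio of the group means (3716 genes with both means of at least 5).

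Titles gave each sample its group. Whether replicates were separate cultures is not in the labels, so the p-values reflect only how far these samples spread, and that spread may be technical. The limma fit (limma 3.58.1, R 4.3.3) used log2(value + 1) and a term for group, with eBayes set to trend and robust. It covered 5540 genes, those reaching a value of 1 in 3 or more samples. The code of the fit was also run on simulated data in which few genes changed, each by more than any member. That setting is unlike these data, so the run does not show how the fit performs on them. Exact permutation tests were run in SciPy 1.17.1. Positions are from Ensembl release 115. The members and lists were chosen with earlier results of these data known. The genes named are the members, every listed Wnt pathway gene in the table, and the 3 genes most correlated with each member. K09E4.1, Y47G6A.13, fog-3, vit-2 and vit-6 were named in addition, after their values were seen. Sequences were not analysed here.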

Additional observations from a re-analysis of the deposited data

How the results depend on the processing

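Each member was refitted in 12 other ways: a pseudocount of 0.1, no filter on low values, quantile normalization, the authors' scaling, eBayes without trend and robust options, each of the 6 samples left out in turn, and a replicate block. The calls of egl-20, cwn-2 and mom-2 kept their direction and passed the threshold in all 12. With no filter on low values 5222 of 5792 genes were called, and in the other alternatives 4445 to 5170 of 5540. Keeping a call thus does not set the members apart from the table. The log2 change of egl-20 ran from 0.54 (without WT replicate 2) to 0.81 (without TGQ replicate 2), with an adjusted p of at most 0.0296 (limma). That of cwn-2 ran from 0.77 to 1.09 and that of mom-2 from -1.08 to -0.76. The Wnt pathway genes called numbered 13 to 15 when a sample was left out. The within-sample difference of egl-20 and cwn-2 ran from -0.40 to -0.03 when a sample was left out, and was -0.03 without TGQ replicate 2. The median of all genes tested, -0.22, became -0.10 after quantile normalization and -0.35 with the authors' scaling. Relative to it, egl-20 stood at 0.87, 0.76 and 0.89 in these 3 scalings, cwn-2 at 1.13, 1.02 and 1.14, and mom-2 at -0.74, -0.78 and -0.73. Among the other named genes, 9 calls were lost and 4 gained over all alternatives: sfrp-1 lost 7, egl-5 and cyk-4 lost 1 each, and F33H1.3 gained 4. The cause was not tested. The labels do not pair the samples. Deviations of same-numbered samples from their group means correlated at 0.247, -0.0115 and 0.16 across genes, and TGQ replicates 2 and 3 correlated best with a WT sample of another number. With a replicate block, 5137 genes were called in place of 4998, and the log2 changes of the members, 0.65, 0.90 and -0.97, stayed called. With unknown depth, the low values of egl-20 and cwn-2 carry an unknown counting error.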
